A study of Mus musculus with 617 samples.

Results

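Levels of the RNAs of 7 genes of the leukaemia inhibitory factor (LIF) pathway were followed through mouse embryonic stem (ES) cells, their derivatives and early embryos. The genes are Lifr, Il6st, Jak1, Stat3, Socs3, Pim1 and Junb, taken by symbol from the 43628 Ensembl genes of the deposited tables. All 7 had a row in each of the 4 tables and passed the filter on low values, so none was left out. All are protein-coding genes. In GENCODE vM21 (GRCm38) the receptor genes Lifr and Il6st span chr15:7090614-7197489 and chr13:112464070-112510086 on the plus strand. Jak1 spans chr4:101152367-101265282 and Stat3 chr11:100885098-100939540, both on the minus strand. The target genes are Socs3 (chr11:117966079-117970047, minus), Pim1 (chr17:29490753-29496112, plus) and Junb (chr8:84974484-84978718, minus).

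LIF binds a receptor made of LIFR and the shared signal-transducing chain gp130, which Il6st encodes. The receptor carries Janus kinases such as JAK1, which phosphorylate the transcription factor STAT3. STAT3 enters the nucleus and switches on target genes, among them Socs3, whose protein blocks the receptor and kinase. In mouse ES cells this route is known for holding back differentiation, and LIF is a standard addition to their medium.

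Single cells were picked and sequenced with Smart-seq2, a full-length transcript method, giving 617 cells in 13 groups. Cultures came from 1 female and 1 male ES cell line, each derived by crossing a C57BL/6J mother with a CAST/EiJ father. With LIF there were ES cells in 2i medium, whose inhibitors block MEK and GSK3 (60 female and 51 male cells), and ES cells in serum (68 and 52). The labels name no LIF for the other cultures: epiblast stem cells in Activin A and FGF2, labelled Epi (79 and 63 cells), and cells taken through embryoid bodies with retinoic acid and the hedgehog agonist SAG, labelled motor neuron (39 and 35). The labels say that the latter protocol also yields interneurons. Each culture is therefore 1 sample, and the female and male lines served as the 2 replicates of a state, so that p-values measure the spread between 2 lines that also differ in sex. A second female Epi culture, kept for 7 passages (41 cells), and the embryos were in separately normalised tables. Embryo cells were 23 from the inner cell mass at E3.5 and 23 from the epiblast at E4.5, of the same cross and with no sex given, and E5.5 epiblast, where both parents were C57BL/6J, with 20 female and 63 male cells.

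Values are FPKM, fragments per kilobase of transcript, scaled to the number of mapped fragments, which corrects for gene length. Library totals are not part of these tables. Per cell, genes that reached 1 FPKM had a median number from 8122 at E3.5 to 10839.5 in female E5.5. The median sum of FPKM per cell was higher in the motor neuron cultures (1332432.7 female and 1478623.9 male) than in the other cultures of the lines, where it ran from 793153.4 to 961112.6. One fragment of Socs3 was worth 0.124 FPKM in the median male Epi cell.

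Markers departed from the labels in several groups. Zfp42, a naive pluripotency gene, reached 1 FPKM in 78 of 79 female Epi cells, in 0 of 63 male Epi cells and in 3 of 41 cells of the 7-passage culture. All 7 listed naive markers averaged 1 FPKM or more in female Epi, against 2 of 7 in male Epi, and their summed level per cell ran from 4.02 to 1217.8 FPKM and from 0 to 100.1 FPKM. The female Epi culture also had 14.1 FPKM of the primed marker Fgf5 against 144.9 in the male one and 119.7 after 7 passages. Some early endoderm genes were detected in most male Epi cells and others in few. In male Epi 85.71% of cells reached 1 FPKM of Gata4 (mean 21.9 FPKM) and 73.02% of Gata6 (7.28 FPKM). In female Epi these shares were 13.9% and 1.27%. Sox17 reached 1 FPKM in only 17.46% and Foxa2 in 25.4% of male Epi cells. Of the 8 endoderm markers 5 averaged 1 FPKM or more in male Epi and 3 in female Epi, with sums per cell of 0 to 831.7 and 0 to 141.3 FPKM and Sox7 listed at 0 in male Epi. Outside that list, T, a listed primed marker, reached 1 FPKM in 93.65% of male Epi cells (mean 153.8 FPKM). Eomes, a listed trophectoderm marker, did so in 98.41% (45.16 FPKM). In female Epi these shares were 26.58% for T and 16.46% for Eomes. The cell type of the male Epi culture was not tested. Mean Sox2, a pluripotency gene, was 0.962 FPKM in male and 28.5 in female Epi. In the motor neuron cultures 14 of 39 female and 17 of 35 male cells had higher endoderm than neuron markers. The 8 endoderm markers summed to between 0 and 1243.1 FPKM per female cell and between 4.81 and 4098.1 per male cell, with Afp listed at 0 in the male culture, against at most 112.8 in any cell with LIF. At E5.5 the visceral endoderm gene Apoa1 averaged 1585 FPKM in female and 424 in male cells, and the endoderm markers summed to between 162.8 and 6838.2 and between 24.8 and 1828.0 per cell. At E3.5 and E4.5 all 6 trophectoderm markers averaged 1 FPKM or more, and they summed to between 10.2 and 1897.6 and between 6.36 and 3196.5 FPKM per cell. Their mean exceeded that of the naive markers in 11 of 23 and 15 of 23 cells, and 3 and 2 cells lay within 0.5 (log2) of equality.

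**Figure D1:**
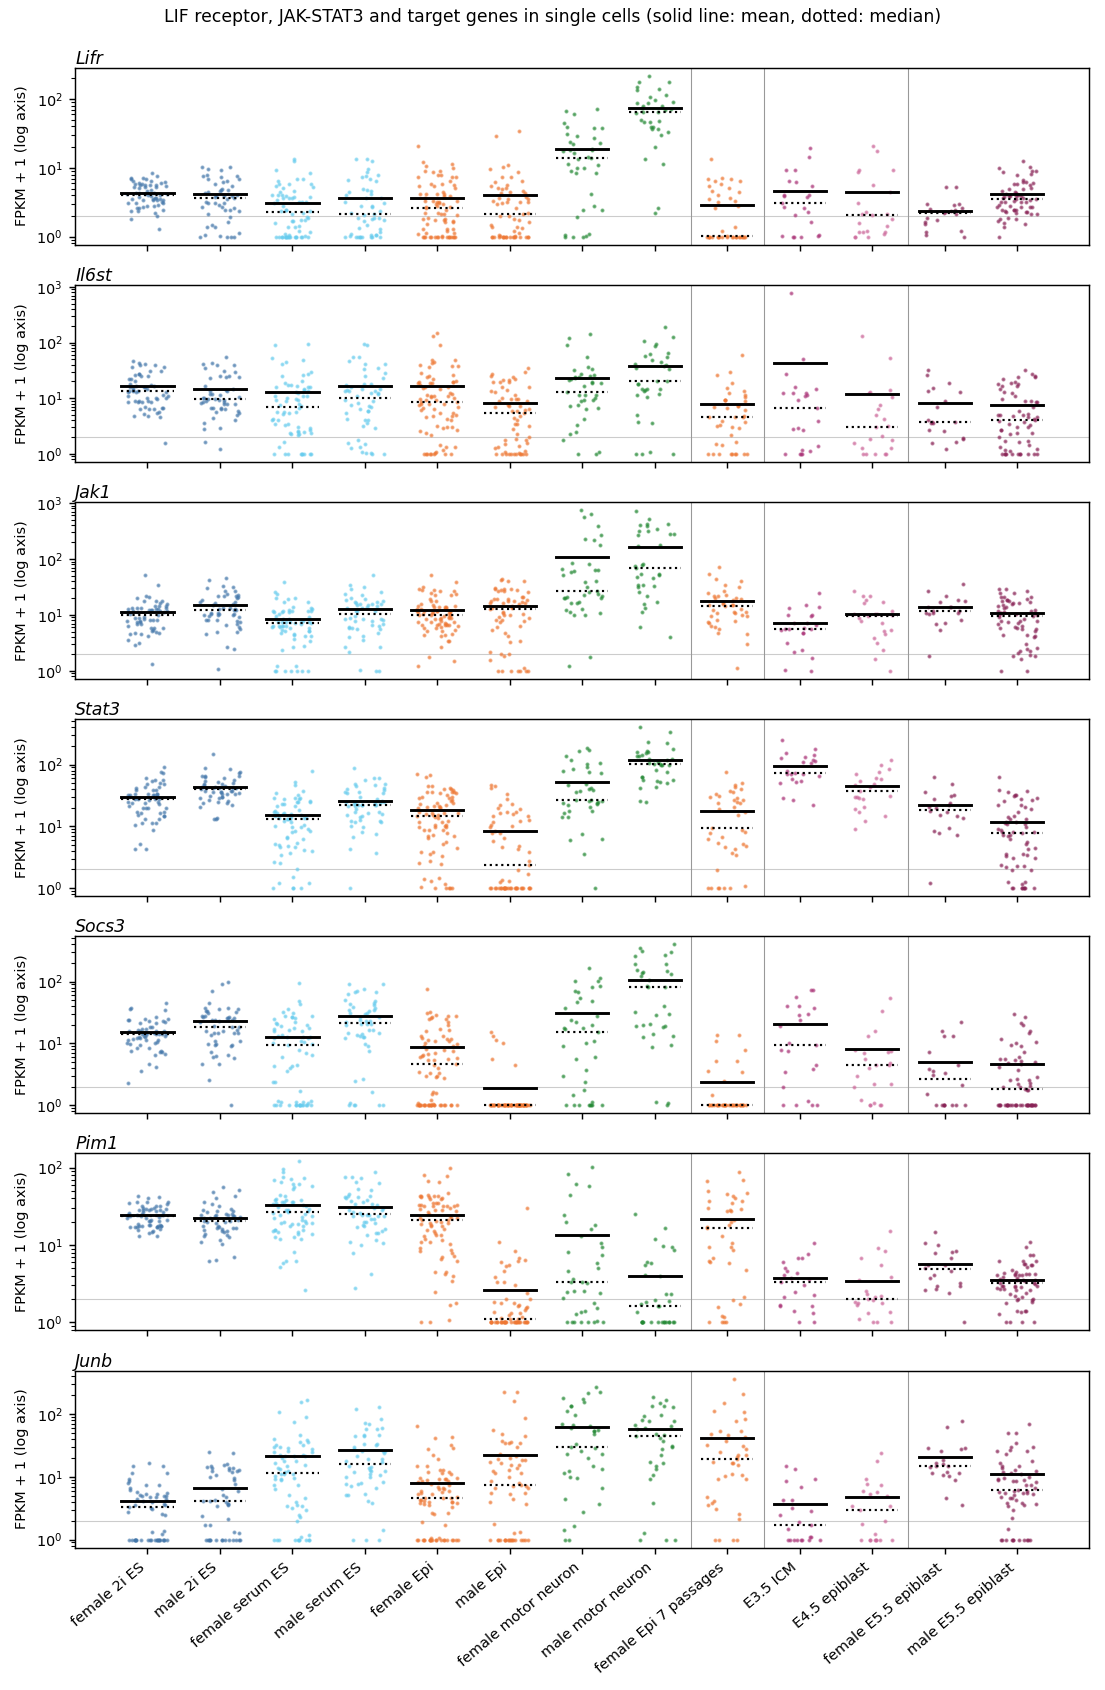
FPKM + 1 of each of the 7 genes (log axis) in single cells of the 13 groups, 1 dot per cell, with the mean as a solid and the median as a dotted line, and vertical lines between separately normalised tables. The means of Lifr and Jak1 in both motor neuron cultures stand above all other groups, and the mean of Socs3 in male Epi (0.868 FPKM) lies below all others.

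The receptor genes came first. Mean Lifr, the LIF-binding chain, was 3.34 and 3.10 FPKM in female and male 2i cells, 2.12 and 2.63 in serum, 2.69 and 2.99 in Epi, and 17.8 and 73.9 in the motor neuron cultures. Both motor neuron cultures were above all others, while the Epi cultures lay within the range of the cultures with LIF. Motor neuron cultures exceeded the LIF cultures by 3.32 ± 0.53 on the log2(FPKM + 1) scale (SE, n = 2 against 4 cultures), a 9.96-fold difference (limma, adjusted p = 0.0044). The Epi difference was 0.03 ± 0.53 (limma, adjusted p = 0.997), and the serum difference from 2i was −0.32 ± 0.61 (limma, adjusted p = 0.985). Within serum cultures Lifr was uneven: 52.9% of female cells (exact 95% interval 40.4 to 65.2%) and 53.9% of male cells reached 1 FPKM, against 95% and 76.5% in 2i.

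Il6st had smaller differences. Its means were 15.4 and 13.6 FPKM in 2i, 12.0 and 15.9 in serum, 15.6 and 7.26 in Epi, and 22.3 and 36.7 in motor neuron cultures. The motor neuron cultures were again the highest and did not overlap the others, and male Epi was the lowest. The motor neuron difference of 0.97 ± 0.36 (log2, SE) did not pass the test (limma, adjusted p = 0.0715). In male serum cells the level depended on the run of cell numbers in the titles: 33.1 FPKM in the lower run of 13 cells and 10.1 in the higher run of 39. What these runs stand for is not given in the labels.

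Jak1, the receptor-bound kinase, had the largest log2 difference of the 7 genes between motor neuron and LIF cultures when FPKM were averaged over cells. With the mean of log2 values over cells, Lifr had the larger one (2.95 against 2.63). Mean Jak1 was 10.2 and 13.8 FPKM in 2i, 7.49 and 11.6 in serum, 11.2 and 13.2 in Epi, and 106.7 and 165.7 in the motor neuron cultures. All 6 ES and Epi cultures sat close together, and both motor neuron cultures stood well above them. The motor neuron difference was 3.54 ± 0.29 on the log2 scale (SE), or 11.6-fold (limma, adjusted p = 0.000908). Jak1 was detected widely, with 1 FPKM or more in 82.5% of male Epi cells and in 86.8% to 100% of cells in the other cultures of the 2 lines.

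Stat3 itself was lowest in male Epi. Mean levels were 29.1 and 42.9 FPKM in 2i, 14.2 and 24.8 in serum, 17.3 and 7.45 in Epi, and 51.2 and 119.2 in motor neuron cultures. Motor neuron cultures lay above all LIF cultures, while the female Epi level fell inside the LIF range and the male one below it. The motor neuron difference was 1.56 ± 0.49 (log2, SE; limma, adjusted p = 0.0418). This call was lost when the sum or the upper quartile was made equal between cells or cultures, with differences of 0.74 to 0.91 and adjusted p of 0.178 to 0.215 in limma. With the mean of log2 values over cells it was lost as well (1.42 ± 0.63, limma, adjusted p = 0.121). It was also lost without the male motor neuron culture (0.96 ± 0.56, limma, adjusted p = 0.25) and without any 1 of the 4 LIF cultures (1.37 to 1.75). The Epi difference was −1.11 ± 0.49 (limma, adjusted p = 0.418), and the serum difference from 2i was −0.88 ± 0.56 (limma, adjusted p = 0.74). Neither passed the test. Among the ES and Epi cultures of the fit, mean Gata4, Gata6, Sox17, Foxa2 and Apoa1 were highest in male Epi. Sox17 had 63.5 FPKM there, Foxa2 11.8 and Apoa1 0.721, the last against 0.685 in female Epi. Sox17 reached 1 FPKM in 17.46% and Foxa2 in 25.4% of male Epi cells. The remaining endoderm markers were not highest there: Sox7 was 0 FPKM in male Epi against 0.796 in female serum, and Dab2 2.98 against 8.67 in male 2i. Afp was 0.00837 against 0.312 in female serum. The part of endoderm genes, T or Eomes in the low Stat3, Socs3 and Pim1 of male Epi was not tested. In male Epi 50.8% of cells reached 1 FPKM of Stat3, against 87.3% in female Epi and 89.7% to 100% in the cultures with LIF.

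Socs3 encodes the feedback inhibitor, and promoters of all members were searched for a STAT-type motif. RefSeq promoters (GRCm38.p6) were available for all 7 genes, in 9 entries. The 250 bases before each start site were searched on both strands for TTCNNNGAA, the spacing that STAT proteins bind, and for TTCCNGGAA, a stricter form whose matches all count for the first as well. TTCNNNGAA occurred in 1 of the 9 entries, that of Socs3, and in 7.02% of all 32851 promoters. With 9 entries, 1 match is near that share and is not read as a trait of Socs3. TTCCNGGAA occurred in none of the 9 and in 0.913% of all. The Socs3 window is chr11:117969367-117969616 on the minus strand. It lies inside the GENCODE span of the gene (chr11:117966079-117970047), and a GENCODE transcript with no annotated protein starts within it. The window is shown with the match in capitals. The windows of Stat3 (chr11:100939541-100939790, minus strand) and Il6st (chr13:112463820-112464069, plus strand) are shown beside it as promoters of the factor and the shared receptor chain without a match.
Socs3: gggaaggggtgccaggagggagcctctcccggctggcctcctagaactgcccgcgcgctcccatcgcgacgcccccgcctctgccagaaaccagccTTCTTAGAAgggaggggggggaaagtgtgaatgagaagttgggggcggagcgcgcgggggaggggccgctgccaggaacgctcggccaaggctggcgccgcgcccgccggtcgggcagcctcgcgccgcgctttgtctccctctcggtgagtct
Stat3: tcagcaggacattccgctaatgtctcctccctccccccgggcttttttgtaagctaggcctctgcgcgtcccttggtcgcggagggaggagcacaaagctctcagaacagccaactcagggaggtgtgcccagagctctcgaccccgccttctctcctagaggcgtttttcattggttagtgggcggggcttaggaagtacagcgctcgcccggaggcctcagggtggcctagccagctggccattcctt
Il6st: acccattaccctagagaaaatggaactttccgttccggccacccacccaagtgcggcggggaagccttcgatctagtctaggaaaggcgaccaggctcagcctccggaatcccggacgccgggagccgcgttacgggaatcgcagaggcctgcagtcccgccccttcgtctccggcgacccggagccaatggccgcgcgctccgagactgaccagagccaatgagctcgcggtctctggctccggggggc
A match describes letters only, since no binding was measured in these cells.

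Socs3 RNA averaged 14.5 and 22.1 FPKM in 2i, 11.8 and 26.6 in serum, 7.80 and 0.868 in Epi, and 29.9 and 106.7 in motor neuron cultures. Both Epi cultures lay below and both motor neuron cultures above the range of the LIF cultures, with no overlap. The Epi difference of −2.22 ± 0.78 (log2, SE) did not pass the test over all genes (unadjusted p = 0.0271; limma, adjusted p = 0.351), nor did the motor neuron difference of 1.61 ± 0.78 (limma, adjusted p = 0.139). With the 7-passage culture (1.39 FPKM) in place of the female Epi culture, an alternative that sets tables normalised apart side by side, the Epi difference was −3.16 ± 0.58 and was called (limma, adjusted p = 0.025).

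The share of cells with Socs3 at 1 FPKM or more was also lowest in male Epi. It was 100% and 98.04% in 2i, 67.7% and 86.5% in serum, 62.03% and 9.52% in Epi, and 71.8% and 91.4% in motor neuron cultures. Male Epi had 6 of 63 such cells (exact 95% interval 3.58 to 19.6%) and the 7-passage Epi culture 21.95% (10.6 to 37.6%), both below each of the other cultures of the lines. These intervals cover counting error only. Within male Epi, Socs3 was listed at 0 in all 31 cells of the lower run of title numbers and averaged 1.71 FPKM in the 32 cells of the higher run. The lower run allows a share of up to 9.68%, an approximate limit of 3 divided by the number of cells and not an exact interval. Stat3 also differed between these runs, at 2.496 and 12.3 FPKM. In female Epi, Socs3 was 3.44 and 11.1 FPKM in the lower and higher runs, while Stat3 was 16.2 and 18.1. The part of these runs in the Epi values was not tested.

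**Figure D2:**
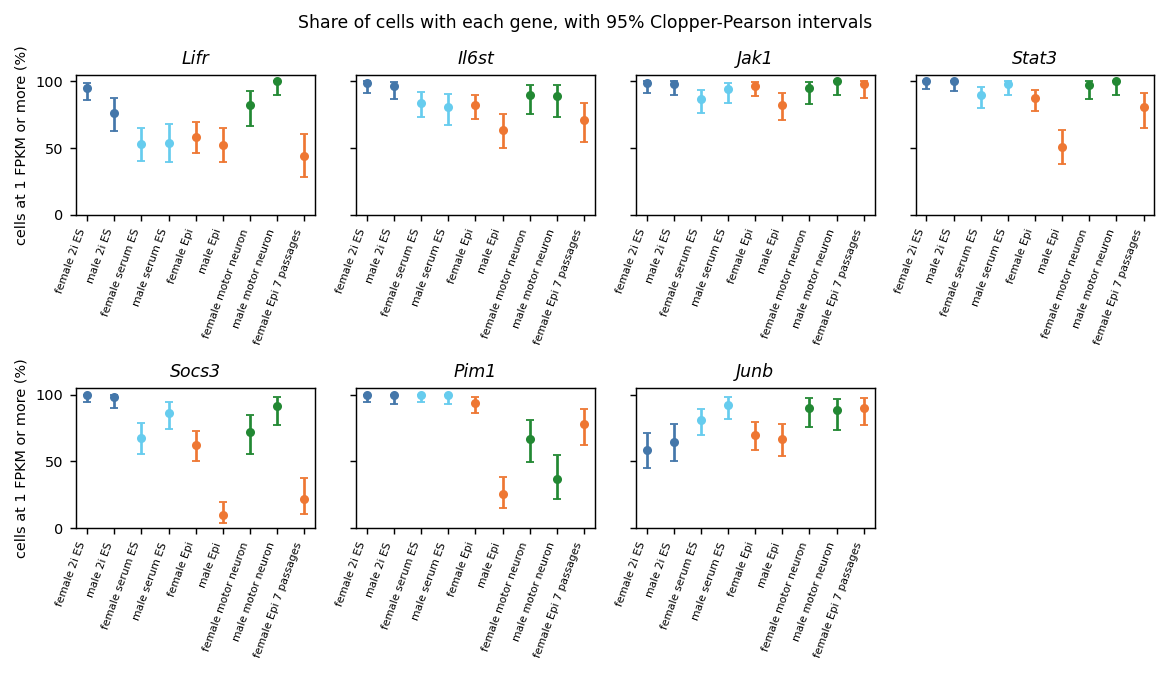
Percent of cells with 1 FPKM or more of each of the 7 genes (vertical axis, 0 to 100) in the 8 cultures of the 2 lines and the 7-passage Epi culture, 1 point per culture, with exact 95% intervals as bars. Socs3 in male Epi (9.52%) and in the 7-passage culture (21.95%) is below the other cultures, and Pim1 is at 100% in all LIF cultures and at 25.4% in male Epi.

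Pim1, a kinase gene known as a STAT3 target, took a course of its own. It averaged 23.3 and 21.5 FPKM in 2i, 31.5 and 30.04 in serum, 23.6 and 1.597 in Epi, and 12.7 and 2.98 in motor neuron cultures. Every cell with LIF reached 1 FPKM, against 93.7% and 25.4% of Epi cells and 66.7% and 37.1% of motor neuron cells. The female Epi culture stayed inside the LIF range, whereas the male Epi and both motor neuron cultures were below it. Differences from the LIF cultures were −1.77 ± 0.91 in Epi (limma, adjusted p = 0.46) and −1.89 ± 0.91 in motor neuron cultures (log2, SE; limma, adjusted p = 0.14), and neither was called. With the mean of log2 values over cells Pim1 was called lower in motor neuron cultures (−2.84, limma, adjusted p = 0.0352) and in all cultures without LIF (−2.49, limma, adjusted p = 0.0466). It was also called lower in motor neuron cultures without either the female or the male Epi culture in the fit (−1.89 in both, limma, adjusted p = 0.041 and 0.0404). Leaving out female Epi, the difference between cultures without and with LIF was −2.64 (limma, adjusted p = 0.0209). The female line differed by −0.61 between cultures without and with LIF and the male line by −3.04. That interaction was −2.43 ± 0.59 (unadjusted p = 0.013) and did not pass adjustment (limma, adjusted p = 0.714, with 2 residual degrees of freedom). No gene of 15504 passed in the interaction test, and 1021 had an unadjusted p under 0.05. The 7-passage female culture, from a table normalised apart, had 20.7 FPKM of Pim1, with 78.05% of cells at 1 FPKM or more. Zfp42 reached 1 FPKM in 3 of 41 of its cells and in 78 of 79 cells of the other female Epi culture. The part of the line, the passages or Zfp42 in these Pim1 levels was not tested.

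Junb, an immediate early gene and STAT3 target encoding a subunit of AP-1, was lowest in 2i. Its means were 3.07 and 5.61 FPKM in 2i, 20.6 and 25.8 in serum, 6.98 and 21.5 in Epi, and 61.6 and 56.1 in motor neuron cultures. Both serum cultures were above both 2i cultures, and the motor neuron cultures were above all of them. The motor neuron difference was 2.42 ± 0.45 (log2, SE), a 5.36-fold one (limma, adjusted p = 0.00708). Serum exceeded 2i by 2.21 ± 0.52 (unadjusted p = 0.0044), which did not pass over all genes (limma, adjusted p = 0.202). Male serum cells had 9.30 FPKM in the lower and 31.3 in the higher run, and both means exceeded the 2i values. With the 7-passage culture, which had 41.2 FPKM, Junb was called higher in Epi by 1.46 ± 0.33 (limma, adjusted p = 0.0441), against 0.26 ± 0.45 without it.

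**Figure D3:**
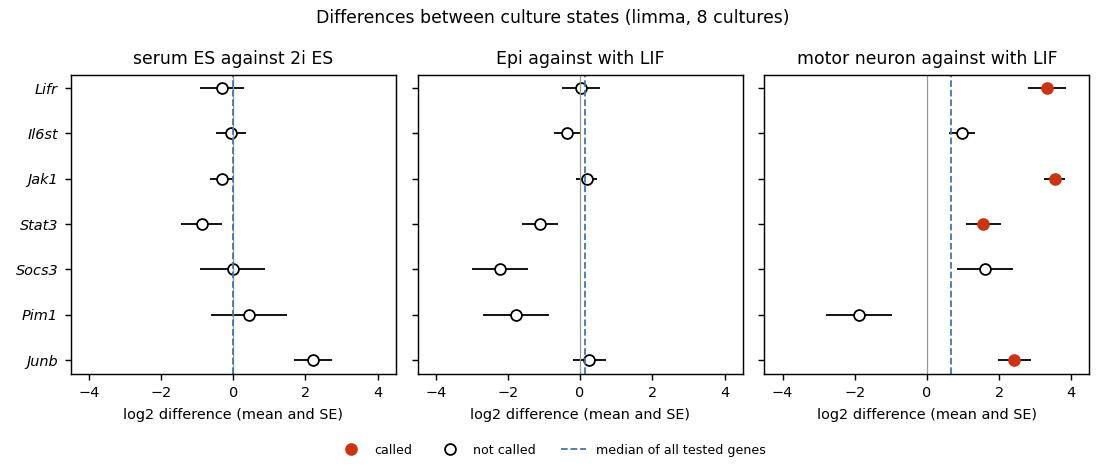
Log2 difference of each gene with its standard error (horizontal axis) in serum against 2i, Epi against the LIF cultures and motor neuron against the LIF cultures, from 1 limma fit over 8 cultures. Filled points were called, and the dashed line is the median of all 15504 tested genes. Only the motor neuron panel holds filled points: Lifr, Jak1, Stat3 and Junb.

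Counted together, 4 of 7 genes (Lifr, Jak1, Stat3 and Junb) were called higher in motor neuron than in LIF cultures, at an adjusted p under 0.05 and a log2 difference of at least 1. Of all 15504 tested genes 33.4% were called higher and 4.10% lower, with a median difference of 0.68. Cultures did not overlap for 6 members that were higher, as for 48.5% of all genes, and for 1 that was lower, as for 11.7%. Of all calls 89.1% were higher, a share that became 57.8% with upper-quartile scaling, 71.1% with equal sums and 67.6% with the mean of log2 values over cells. Under upper-quartile scaling, equal sums and equal sums over genes of at least 200 bases, Jak1 (2.73 to 2.82), Lifr (2.56 to 2.80) and Junb (1.62 to 1.87) remained called.

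In Epi 0 of 7 members were called against 0.0645% of all genes, and in serum against 2i 0 of 7 against 0.0193%. At an unadjusted p under 0.05 in limma there was 1 member in each, Socs3 in Epi and Junb in serum, beside 1944 (12.5%) and 1549 (9.99%) of all genes. In Epi 1 member, Socs3, lay below the LIF cultures without overlap, as did 5.79% of all genes. In serum 2 members (Pim1 and Junb) were above and 2 (Lifr and Stat3) below 2i without overlap, as were 27.1% and 26.2% of all genes. Male serum values of 3 of them differed by run of title numbers. In the lower run Lifr was 4.87 FPKM, above both 2i means, and Stat3 (34.3) and Pim1 (22.03) lay between the 2i means. In the higher run they were 1.89, 21.6 and 32.7 FPKM. The part of these runs was not tested. With the line as a block, 4 genes in place of 10 were called in Epi and 0 in place of 3 in serum. The cultures without LIF as 1 arm had 3 of 7 members called higher (Lifr, Jak1 and Junb) than those with LIF, against 18.4% of all genes. Their differences were 1.67 ± 0.43, 1.86 ± 0.24 and 1.34 ± 0.36 on the log2 scale (limma, adjusted p = 0.0352, 0.00734 and 0.0404). For every member the culture ranges without and with LIF overlapped. Of these 3, Jak1 alone stayed called when cells were rescaled to equal sums, and also when the female 2i, male 2i, female serum, male serum or male Epi culture was left out, where Lifr ran from 1.62 to 1.73 and Junb from 0.97 to 1.52. Lifr also lost this call with neuron-side motor neuron cells alone (limma, adjusted p = 0.0687).

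The rest of the pathway, from lists set up by function, was read from the same fits. All contrasts share control cultures and are given side by side only. Counts of called genes in motor neuron cultures stand against the 33.4% of all genes called higher and 4.10% called lower there. Of 8 ligands of the gp130 family 3 passed the filter. Osm averaged 8.98 and 7.81 FPKM in 2i, 3.14 and 3.55 in serum and 0.603 and 0.0415 in Epi, and was listed at 0 in both motor neuron cultures. It was called lower there (limma, adjusted p = 0.0015). Lif was called higher in motor neuron cultures, at 4.48 and 2.30 FPKM against 0.251 to 0.976 in the cultures with LIF (1.33 ± 0.34, limma, adjusted p = 0.0222). Its median was 0 in both motor neuron cultures. There 33.33% and 34.29% of cells reached 1 FPKM of Lif, against 10% to 29.41% with LIF.

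Among 4 receptor partners of gp130, 3 were called higher in motor neuron cultures and none lower, with a list median of 2.16. Osmr, the oncostatin M receptor chain, rose from 0.0189 to 0.102 FPKM in LIF cultures to 4.12 and 25.8 (3.46 ± 0.63, limma, adjusted p = 0.007). Its median was 0 in the female and 1.351 in the male motor neuron culture. There 30.77% and 51.43% of cells reached 1 FPKM of Osmr, against 1.667% to 3.846% with LIF. Cntfr and Il11ra1, the ligand-binding chains for ciliary neurotrophic factor and interleukin-11, rose by 1.90 ± 0.40 and 2.42 ± 0.49. Mean Cntfr was 8.875 FPKM in the female motor neuron culture and 9.66 in the male one. It was 0.0169 and 0.0442 FPKM in 2i against 6.18 and 6.57 in serum, a difference that did not pass (limma, adjusted p = 0.093). Median Cntfr was 0 in both motor neuron cultures, against 1.373 and 1.72 in serum. The share of cells at 1 FPKM or more was 48.72% and 42.86%, against 52.94% and 53.85% in serum. Above serum, the Cntfr rise thus held for means only.

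Of 9 other JAK and STAT genes 3 were called higher and none lower. Among them were Jak2 (2.69 ± 0.27) and Stat5b (1.37 ± 0.35), and the list median was 1.02. Stat6 was −0.86 ± 0.36 (limma, adjusted p = 0.1). Of 8 negative regulators 5 were called higher: Socs1, Socs2 and Cish, relatives of Socs3, and Pias1 and Pias3, inhibitors of activated STATs. Mean Socs2 was 69.4 FPKM in the female motor neuron culture and 177.9 in the male one, against 34.04 to 52.31 with LIF. Its median was 5.854 in the female culture and 53.09 in the male one, against 33.02 to 48.23 with LIF. Fewer cells reached 1 FPKM of Socs2 there, 58.97% (female) and 74.29% (male) against 96.15% to 100% with LIF. Cish stood at 12.4 and 24.2 FPKM against 0.194 to 4.29 in LIF cultures, a difference of 2.63 ± 0.41. Its median was 0.1004 in the female and 9.375 in the male motor neuron culture. There 46.15% and 54.29% of cells reached 1 FPKM of Cish, against 5% to 38.24% with LIF. Ptpn6, a phosphatase, was −0.04 ± 0.25.

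Of 11 other STAT3 targets none was called higher in motor neuron cultures and 2 were called lower, with a median of −0.40. Tfcp2l1, a pluripotency factor downstream of LIF, fell by 3.34 ± 0.64 on the log2 scale (limma, adjusted p = 0.0081), and Gbx2 by 3.14 ± 1.03 (limma, adjusted p = 0.049). Tfcp2l1 averaged 70.7 and 78.7 FPKM in 2i, 5.33 and 5.53 in serum, 5.29 and 0.185 in Epi, and 1.78 and 0.699 in motor neuron cultures. The 2 LIF media thus stood apart for this gene, with serum near female Epi. Over both states without LIF, Klf4 and Bcl3 were called lower besides Tfcp2l1, by −1.64 ± 0.36 and −1.91 ± 0.56. Myc (0.15 ± 0.31) and Mcl1 (−0.06 ± 0.52), the most abundant of the list, were not called in motor neuron cultures.

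The immediate early genes, the class of Junb, had 5 of 8 tested genes called higher in motor neuron cultures, with a median of 2.80. These were Fos (3.86 ± 0.82), Atf3 (3.76 ± 0.85), Jun (3.33 ± 0.51), Btg2 (2.97 ± 0.50) and Dusp1 (1.33 ± 0.19). Ier2 was −0.34 ± 0.26. In Epi and in serum against 2i, none of these pathway lists had a called gene in limma. At an unadjusted p under 0.05, 5 of the 11 STAT3 targets were counted in each of the 2 comparisons, beside 12.5% and 9.99% of all genes.

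The motor neuron cultures held cells of more than 1 kind, and the members differed between them. Cells were described by whether the mean of 8 neuron or of 8 endoderm markers was higher, a range along a score and not a cell type: 3 female cells and 1 male cell lay within 0.5 of the dividing line. Female cells numbered 25 on the neuron side and 14 on the endoderm side, and male cells 18 and 17. Mean Jak1 was 155.5 against 19.6 FPKM in the female culture and 291.4 against 32.6 in the male one. Median Socs3 was 16.8 against 2.34 and 136.4 against 18.6. Both were higher on the neuron side in each culture, and Stat3 was too, at 37.6 against 24.4 and 140.9 against 74.9.

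Lifr did not follow this division. Its medians were 7.47 on the neuron side and 19.6 on the endoderm side in the female culture, and 68.6 and 49.3 in the male culture, so the order differed between lines. Pim1 reached 1 FPKM in 66.7% of male neuron-side cells and 5.88% of endoderm-side cells, but in 64% and 71.4% in the female culture. Osmr had a median of 44.04 FPKM on the male neuron side and was listed at 0 in the median endoderm-side cell. Pou5f1, a pluripotency gene, reached 1 FPKM in 60% of female neuron-side cells, against 43.59% of all female and 5.714% of all male cells of these cultures. The part of such cells in the female neuron-side values was not tested. With neuron-side cells alone, an alternative chosen after seeing the data, the motor neuron differences were 4.21 for Jak1, 3.17 for Lifr, 2.55 for Junb and 1.83 for Stat3, all called (limma, adjusted p = 0.0367 for Stat3).

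**Figure D4:**
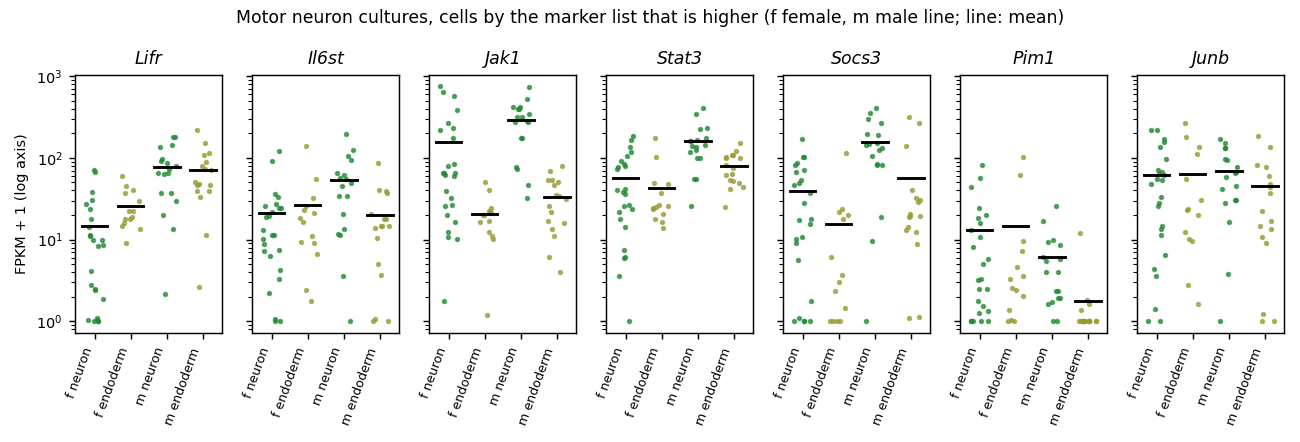
FPKM + 1 of the 7 genes (log axis) in single cells of the female (f) and male (m) motor neuron cultures, 1 dot per cell, divided into cells with higher neuron or higher endoderm markers, with the mean as a line. Jak1 is higher on the neuron side in both cultures (means 155.5 against 19.6 and 291.4 against 32.6 FPKM), while mean Lifr is 13.8 against 25.1 in the female and 76.7 against 70.8 in the male culture.

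Blastocyst cells carry a leading number in their titles, 4 different ones at E3.5 and 7 at E4.5. The labels do not say what it stands for, so each stage was taken as 1 sample and no test was made. Stat3 had 92.9 FPKM at E3.5 (SD over 23 cells 54.4), 44.2 at E4.5 (SD 29.1), and 20.9 and 10.8 in female and male E5.5 cells from another table. It was found at E3.5 in every cell, from 21.2 to 249.3 FPKM. Socs3 ran in the same order, with 19.8, 7.05, 4.06 and 3.65. The later stages thus had lower means of both genes, with overlapping cells. Means per title number ran from 65.5 to 123.4 FPKM of Stat3 at E3.5 and from 27.3 to 97 at E4.5, and from 2.60 to 33.6 and 0 to 17.8 FPKM of Socs3, so both genes overlapped there too.

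Trophectoderm markers moved with these 2 stages. Mean Cdx2, a trophectoderm factor, was 13.7 FPKM at E3.5 and 48.65 at E4.5, and Krt18, a keratin gene, 219.1 and 864.4. The median sum of the 6 markers per cell was 182.9 and 1242.9 FPKM. In the 12 and 8 cells with higher naive than trophectoderm markers, a division chosen after seeing the data, Stat3 averaged 70.05 and 26.8 FPKM and Socs3 26.8 and 4.85. In the other 11 and 15 cells Stat3 averaged 117.8 and 53.5 and Socs3 12.1 and 8.22. Both means were lower at E4.5 than at E3.5 on either side of this division.

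Pim1 stayed low throughout, at 2.74 FPKM at E3.5, 2.45 at E4.5, and 4.63 and 2.57 at E5.5, while it was 21.5 or more in every culture with LIF. Junb was 2.69 and 3.82 FPKM in the blastocyst stages and 19.9 and 10.1 at E5.5. Jak1 had 6.25, 9.28, 12.7 and 9.70 FPKM, and Lifr 3.65, 3.399, 1.35 and 3.15. Il6st averaged 41.9 FPKM at E3.5, but 1 cell with 783.6 FPKM made most of this: the mean was 8.23 without it and the median 5.62, against 10.9 at E4.5.

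The other STAT3 targets named above were set beside these values. Tfcp2l1 had 51.9, 29.9, 4.45 and 1.53 FPKM in the same 4 groups, Klf4 15.8, 15.3, 0.732 and 0.583, and Bcl3 7.90, 9.35, 3.19 and 2.27. All of these were higher at the blastocyst stages than at E5.5, as Stat3 was. Myc was lower at the blastocyst stages than at E5.5, with 22.3, 17.1, 111.9 and 73.7. Mcl1 was lower there too, with 11.1, 11.0, 15.5 and 15.5. Gbx2 was at most 1.22 FPKM in each group. The E5.5 cells are from another table and another cross, and the part of either was not tested. At E5.5, 8 of 20 female and 3 of 63 male cells had a marker list other than the epiblast ones highest. Without them, female means were 14.9 FPKM for Stat3, 3.01 for Socs3, 3.77 for Pim1, 11.7 for Junb, 1.18 for Lifr and 7.38 for Il6st, and Jak1 was below its 12.7 FPKM over all cells. Male means without them were 9.67 FPKM for Stat3, 3.80 for Socs3, 2.44 for Pim1, 8.23 for Junb, 9.37 for Jak1, 3.19 for Lifr and 6.27 for Il6st.

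Order over all 13 groups can be read only loosely, since tables were normalised apart. Male motor neuron cells were highest for Lifr, Jak1, Stat3 and Socs3, female motor neuron cells for Junb, female serum cells for Pim1 and E3.5 cells for Il6st. Male Epi was lowest for Stat3, Socs3 and Pim1. Neighbouring groups mostly differed by less than the smaller of their SDs over cells. The exceptions were the steps below male and below female motor neuron for Lifr, below female motor neuron for Jak1, below male motor neuron for Socs3, and for Pim1 below female motor neuron.

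Within groups, members varied together only in places. Across 68 female and 52 male serum cells, Lifr had a Spearman rho with Zfp42 of 0.57 and 0.50, and in 60 female and 51 male 2i cells of 0.19 and 0.01. Across 35 male motor neuron cells Jak1 had a rho of 0.73 with Pim1 and 0.68 with Stat3, against 0.03 and 0.36 across the 39 female ones. In the 23 cells of each blastocyst stage, Lifr had a rho with Il6st of 0.65 at E3.5 and 0.70 at E4.5, and with Stat3 of −0.39 and −0.43. Cells of a group share depth differences and runs, and these values are descriptions.

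Genes with the profile most like each member were taken by Pearson r of log2(mean FPKM + 1) over the 8 cultures, among protein-coding genes of at least 5 FPKM. For Lifr they were Tox (0.997), Nhlh2 and Nepn, and for Jak1 they included Sept7 (0.997) and Ccdc130. For Stat3 they were Mrpl43 (0.986), Scpep1 and Cul2, and for Socs3 Slc25a12 (0.986), Skap2 and Twf1. Il6st was nearest to Slf1 (0.983), Arrb2 and Ccpg1, Pim1 to Platr17 (0.991), Tomm5 and AU018091, and Junb to Cog6 (0.978), Amz2 and Rnf141. With 8 cultures, of which 2 stand high for most members, many genes reach such values, and no member was among the nearest 3 of another.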

How the data were processed

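The deposited values are FPKM per gene and cell. Per the submitters' processing notes, the authors' tools were STAR 2.4.1, Cufflinks and Cuffnorm 2.2.1, with mm10; roles and the annotation are not given in the sources used here. Members and lists were chosen with earlier results of these data known. Mean FPKM over the cells of each culture was taken as log2(mean + 1), and the 15504 genes whose mean over the 8 cultures reached 1 FPKM entered 1 fit (limma 3.58.1, R 4.3.3, trend, 1 coefficient per state, 4 residual degrees of freedom) with Benjamini-Hochberg adjustment. All 7 members are named. Other listed genes are named where called or among the 2 most abundant of their list; a few that the rule names are not reported here. Single marker genes of cell types were picked after their values were seen. The fit was tested on simulated data. Positions of genes follow GENCODE vM21, which matched 42548 of the 43628 genes. Replicate numbers are lines, so same-line cultures pair: their deviations correlated at 0.06 to 0.16 over the 15504 genes. Tables were normalised separately, and no test crosses them except the replacement of the female Epi culture, named as such.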

Additional observations from a re-analysis of the deposited data

Results flagged for a closer look

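In both lines Stat3 and Socs3 were lower in Epi and higher in motor neuron cultures than the mean of the LIF cultures of the same line. Against that mean, log2 Stat3 differed by −0.22 and −1.99 in female and male Epi and by 1.29 and 1.84 in female and male motor neuron cultures. The difference of motor neuron minus Epi, a contrast added after seeing the data, was 2.67 ± 0.56 (SE; limma, adjusted p = 0.0185). Of all genes, 21.9% were called higher and 2.60% lower in that contrast. Lifr (3.29), Jak1 (3.35) and Junb (2.16) were also called higher in it (limma, adjusted p = 0.0129, 0.00334 and 0.0267). Il6st (1.34) and Pim1 (−0.12) were not called. Stat3 and Socs3 were flagged for lying below the LIF mean in Epi and above it in motor neuron cultures. Their contrast measures that same gap and is no separate test of it.

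For Socs3 the same 4 differences were −0.68, −3.76, 1.13 and 2.09, and motor neuron minus Epi was 3.83 ± 0.90 (SE; limma, adjusted p = 0.0253). Single LIF cultures did not always follow: Stat3 was 17.3 FPKM in female Epi and 14.2 in female serum cells. Endoderm-marker cells in the motor neuron cultures, Gata4, T and Eomes in male Epi, and Zfp42 in female Epi move with these groups. The runs of title numbers do so too, and the part of all of these was not tested.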

How the results depend on the processing

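Of 588 log2 differences of the 7 genes under alternatives, 515 kept direction and side of the threshold, 39 lost their call, 7 gained one and 27 changed sign; the cause was not tested. Motor neuron against LIF cultures: Jak1, Lifr and Junb were called in each leave-one-out fit (3 to 5 members, 4134 to 6009 genes).

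Without LIF against with LIF, 3161 genes were called, and 2014 with no filter, 2059 with a filter at 5 FPKM, 1671 with the mean of log2 over cells, 2054 with equal sums, and 538 to 3814 leaving out 1 culture. Members called were 3, but 1 (Jak1) with no filter, with equal sums over all genes or over those of at least 200 bases, with upper-quartile scaling and in the lower run of title numbers, and 1 to 3 leaving out 1 culture. Il6st was −0.16 with upper-quartile scaling. Stat3 was −0.15 with the mean of log2, −0.03 and −0.09 with the equal sums, −0.25 with upper-quartile scaling, −0.11 in the lower run and −0.07 to 0.53 leaving out 1 culture; Socs3 was −0.86 to 0.26.

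Serum against 2i gave 3 called genes, and 0 with a pseudocount of 0.1, 27 with no filter, 224 with the mean of log2, 5 with equal sums, 12 with upper-quartile scaling, 15 and 22 in the lower and higher runs, 29 higher and 82 lower (in place of 1 and 2) with the 7-passage culture and 0 to 38 leaving out 1 culture. Il6st was 0.63 in the lower run and −0.25 to 0.12 leaving out 1 culture. Socs3 was 0.06 with equal sums, 0.04 with upper-quartile scaling, 0.03 in the higher run and −0.57 to 0.54.

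Epi gave 10 called genes, and 29 with the mean of log2, 1 in the lower run, 1624 with the 7-passage culture (2 members) and 0 to 636 leaving out 1 culture. Lifr was −0.23 with the mean of log2, −0.08 with upper-quartile scaling, −0.26 in the lower run, −0.15 with the 7-passage culture and −0.03 to 0.08 leaving out 1 culture. Il6st was −0.87 to 0.14. Junb was −0.21 with the mean of log2 and −0.48 to 1.01.

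With the line as a replicate block, 4 genes were called in Epi and 0 in serum against 2i, and no member's call changed. Shares of cells depend on the detection level: 29 of 91 moved beyond their interval at 0.1 FPKM and 54 at 5 FPKM. Depth per cell is not given as counts, so low levels near 1 fragment cannot be told from absence.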
